A study of Rattus norvegicus with 6 samples.

Results

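The expression of 32 genes of GABA and glycine receptors and of the inhibitory synapse was examined in hippocampal tissue of aged rats that had been anesthetized with sevoflurane. The genes were taken by symbol: 13 GABA-A receptor subunits, 3 rho subunits, 2 GABA-B receptor subunits, 4 glycine receptor subunits, 2 postsynaptic scaffold and adhesion genes, 3 genes of GABA synthesis and vesicular loading, 3 of GABA uptake and breakdown and 2 chloride cotransporters. All 32 were found among the 22093 genes that the array annotation names with a probe set of their own. A gene with several probe sets was read from the one of highest mean level over the 6 arrays, which applied to 3 of the 32 genes (Gabra4, Gabbr2 and Glra2). The glycine receptor subunit Glra4 is counted among the further synapse genes at the end.

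Male Sprague-Dawley rats aged 18 months were used in both groups. Exposure lasted 4 h and differed by the anesthetic: sevoflurane at 2.5% was added to the oxygen for the sevoflurane group (n = 3), and the control group (n = 3) was given oxygen alone. The hippocampus was dissected 3 h after the end of anesthesia, so the arrays hold 1 time point after recovery, in males of 1 age, and no surgery. RNA of each hippocampus was hybridised to 1 whole-transcriptome array (Clariom D Pico), and the deposited values are log2 expression, 1 per probe set and array. Because the tissue was measured in bulk, a difference in RNA per cell and a difference in the number of cells of a type cannot be told apart.

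GABA and glycine are the main inhibitory transmitters of the brain and spinal cord. GABA-A, rho and glycine receptors are pentameric chloride channels, and volatile anesthetics such as sevoflurane act in part by enhancing the currents of GABA-A and glycine receptors, whereas GABA-B receptors are G protein-coupled. Interneurons make GABA with the Gad1 and Gad2 enzymes and load it into vesicles with Slc32a1, transporters on neurons and astrocytes clear it, and the balance of Slc12a5 (KCC2, which extrudes chloride) and Slc12a2 (NKCC1, which imports it) sets whether an open channel hyperpolarizes the cell.

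Most of these genes differed little between the groups. At an unadjusted p under 0.05 by limma, 1 of the 32 genes was higher in the sevoflurane group and 0 were lower, where 1.1% and 0.222% of the 22093 genes and 0.864% and 0.745% of all 68842 probe sets were called in those directions. The gene was Slc6a11, which encodes the GABA transporter GAT-3. After Benjamini-Hochberg adjustment over all probe sets, 0 of the 32 passed (adjusted p = 1.0 for each by limma), as did 0.0% of all probe sets, of which the smallest adjusted p was 0.184. The median difference of the 32 genes, sevoflurane minus control, was 0.03 on the log2 scale against 0.02 over all genes and 0.01 over all probe sets, and the difference was above 0 for 21 of the 32 genes, against 62.5% of all genes.

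The intervals bound how large a difference could have gone unseen. The standard errors of the 32 differences lay between 0.10 and 0.17, and the 95% intervals reached a median of 0.29 to either side of the difference (0.23 to 0.39). The whole interval lay within 1.5-fold either way for 30 of the 32 genes, where 94.0% of all genes gave the same, and the exceptions were Glra1 and Slc6a11. It lay within 1.3-fold for 16 genes, among them Gabra4, Gabra5, Gabrb2, Gabrd, both GABA-B subunits, Gphn, Gad1, Gad2 and Slc12a5. With 3 arrays a group, differences smaller than these half-widths would mostly not have been detectable.

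**Figure D1:**
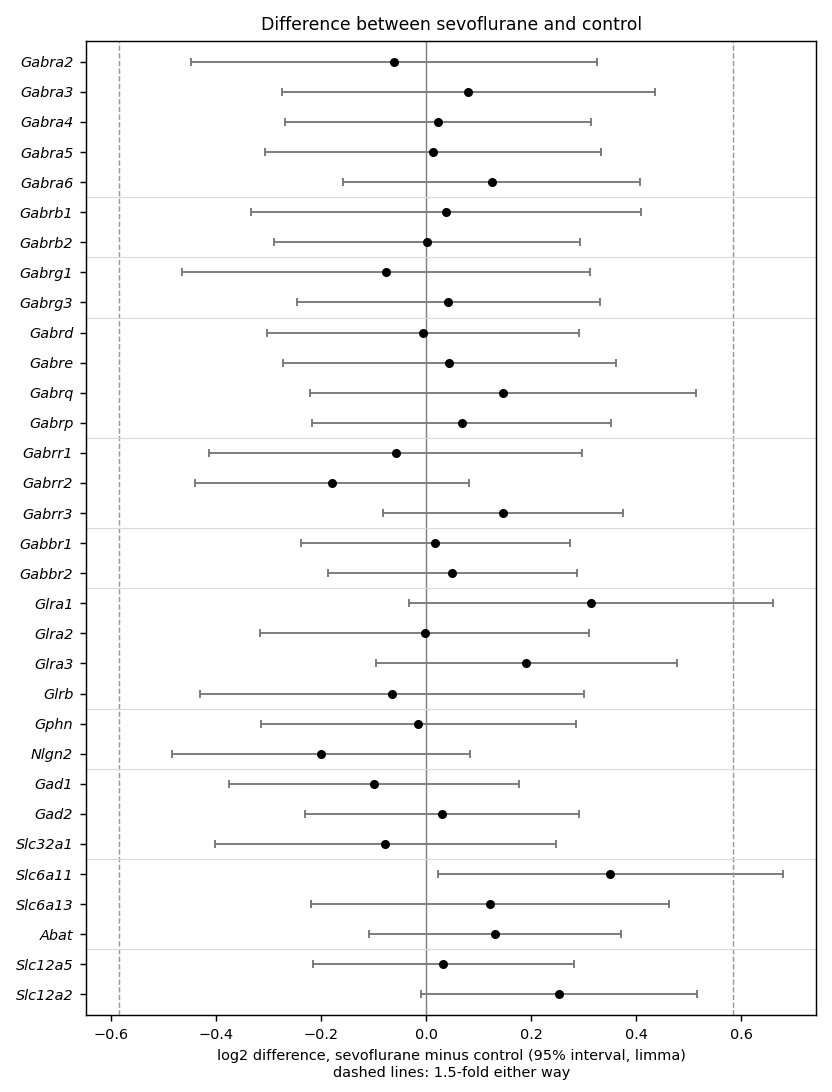
The log2 difference of each of the 32 genes, sevoflurane minus control, is plotted as a point with its 95% interval from limma (n = 3 arrays a group), with genes ordered by role and dashed lines at 1.5-fold either way. The interval of Slc6a11 (0.02 to 0.68) is the one that leaves 0 out, and those of Slc6a11 and Glra1 pass the dashed line.

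The first replicate of the sevoflurane group differed from the other arrays as a whole. It had a narrower spread of values (SD 1.85 over all probe sets, against 1.93 to 2.03 on the other 5 arrays) and a lower mean correlation with the other arrays (0.986 against 0.991 to 0.993). Of the 32 genes, 11 had their lowest and 8 their highest value on this array, but other arrays held similar numbers of extremes, with 10 lowest values on control replicate 1 and 9 highest on sevoflurane replicate 2. The SD was larger in the sevoflurane group than in the control group for 23 of them. All 32 genes exceeded the median of 23 background controls (3.46 to 3.96 by array) on all 6 arrays, although the brightest of those controls reached 6.94 to 7.46. Of the markers of the hippocampal fields, 18 of 19 were measured and all 18 were above that median on the 6 arrays, with a median difference of −0.06 and 0 at an unadjusted p under 0.05 by limma. Markers of the thalamus and habenula, which border the hippocampus, were also present, and 9 of 20 were higher in the sevoflurane group at an unadjusted p under 0.05, as given beside Slc6a11.

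**Figure D2:**
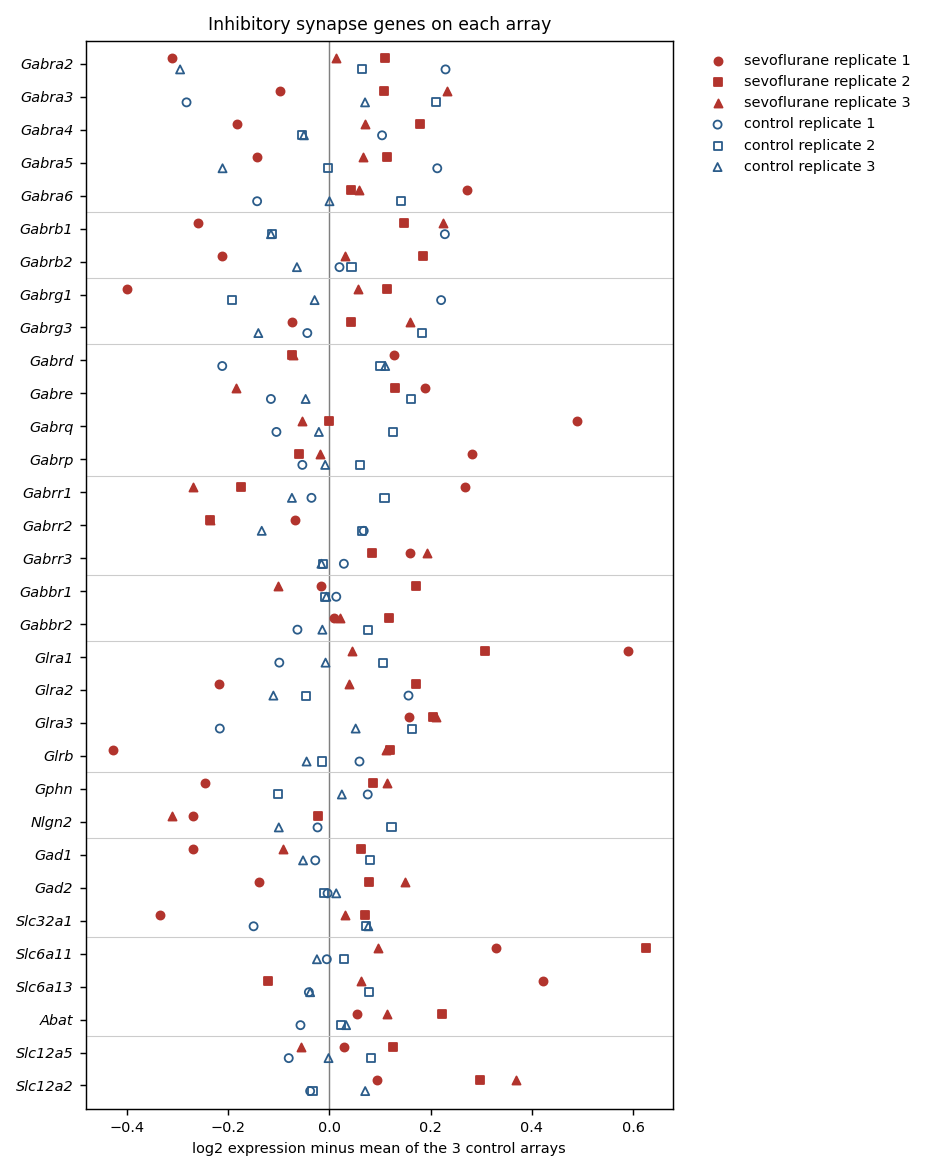
Each row shows the log2 expression of 1 gene on the 3 sevoflurane arrays (filled) and the 3 control arrays (open), minus the mean of the control arrays, with symbols for replicates 1, 2 and 3. Sevoflurane replicate 1 lies at the low end for 11 genes and at the high end for 8, and control replicate 1 lies at the low end for 10.

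Promoter sequences give the regulatory context of a gene. A RefSeq promoter sequence (build GRCr8) was available for 27 of the 32 genes. In each, 6-letter and 8-letter motifs were searched on both strands in the 250 bases upstream of the gene start. The glucocorticoid response half-site AGAACA was present in 3 of the 27 windows (Slc32a1, Gabrr2 and Gabre), and in 17.5% of all 33469 promoters. The cAMP response element TGACGTCA was in 0 of 27 (1.59% of all), the TATA box TATAAA in 4 of 27 (12.9% of all) and the GC box GGGCGG in 18 of 27 (30.5% of all). Each motif was counted on its own, and a match is a description of the sequence and not a binding site. Shown are the windows of Slc6a11 (chr4:148853307-148853556, plus strand, 73.6% G and C), the gene with an unadjusted p under 0.05, of Gabrr3 (chr11:54424467-54424716, minus strand, 38.0% G and C), whose groups did not overlap either, and of Slc32a1 (chr3:167686995-167687244, plus strand), which carries the half-site. Capitals mark motif matches: 4 GC boxes on either strand in Slc6a11, none in Gabrr3, and a half-site followed by a GC box, both on the reverse strand, in Slc32a1.
Slc6a11: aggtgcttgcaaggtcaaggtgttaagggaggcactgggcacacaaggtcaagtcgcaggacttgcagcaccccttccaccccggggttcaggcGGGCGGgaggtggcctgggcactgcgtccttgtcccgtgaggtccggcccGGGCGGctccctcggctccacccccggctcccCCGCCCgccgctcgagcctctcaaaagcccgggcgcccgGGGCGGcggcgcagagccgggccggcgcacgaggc
Gabrr3: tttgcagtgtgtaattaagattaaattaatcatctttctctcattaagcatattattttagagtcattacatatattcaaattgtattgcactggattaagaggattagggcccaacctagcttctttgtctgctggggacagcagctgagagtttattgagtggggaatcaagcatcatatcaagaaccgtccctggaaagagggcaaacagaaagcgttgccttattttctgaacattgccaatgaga
Slc32a1: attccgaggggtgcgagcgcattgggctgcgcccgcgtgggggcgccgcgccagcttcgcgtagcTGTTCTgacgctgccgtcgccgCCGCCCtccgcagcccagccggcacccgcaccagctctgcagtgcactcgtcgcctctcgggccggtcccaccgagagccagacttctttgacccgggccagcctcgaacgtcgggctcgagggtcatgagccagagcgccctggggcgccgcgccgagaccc

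The alpha subunits form part of the GABA binding site and set much of the pharmacology of GABA-A receptors. Gabra2, a synaptic alpha subunit, had log2 values of 10.38, 10.80 and 10.70 in the sevoflurane group, against 10.92, 10.75 and 10.39 in the control group. Its groups overlapped throughout, with a difference of −0.06 (95% interval −0.45 to 0.32) that turned to 0.02 after quantile normalization. The other alpha subunits differed by 0.08 (Gabra3), 0.02 (Gabra4, which pairs with delta outside synapses), 0.01 (Gabra5, an extrasynaptic subunit abundant in hippocampal pyramidal cells) and 0.12 (Gabra6, known from cerebellar granule cells). The values of Gabra6 (3.70 to 4.11) were close to the median of the background controls (3.46 to 3.96 by array). None of the 5 passed the unadjusted threshold, and their median difference was 0.02.

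The beta and gamma subunits were likewise without a call. Gabrb1 had log2 values of 9.57, 9.98 and 10.06 in the sevoflurane group and 10.06, 9.72 and 9.72 in the control group, a difference of 0.04 (95% interval −0.33 to 0.41). Gabrb2, whose product is common in synaptic receptors, differed by 0.00 (−0.29 to 0.29). Gabrg3 had 7.82, 7.94 and 8.06 in the sevoflurane group and 7.85, 8.08 and 7.76 in the control group (0.04, −0.25 to 0.33), and Gabrg1 differed by −0.08 (−0.46 to 0.31). For both classes the value of the sevoflurane group depended on the array: the beta subunits averaged 0.23 below the control mean on sevoflurane replicate 1 and 0.17 and 0.13 above it on replicates 2 and 3, and the gamma subunits averaged 0.24 below and 0.08 and 0.11 above.

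The delta subunit Gabrd, which forms extrasynaptic receptors of the dentate gyrus, had values of 6.92, 6.71 and 6.72 in the sevoflurane group and 6.58, 6.89 and 6.90 in the control group (difference −0.01, 95% interval −0.30 to 0.29). The epsilon, theta and pi subunits, which are scarce in the hippocampus, differed by 0.04 (Gabre), 0.15 (Gabrq) and 0.07 (Gabrp). Their values, like those of Gabrd, were all below the brightest background control of their array. These 4 subunits averaged 0.27 above the control mean on sevoflurane replicate 1, the opposite side from the beta and gamma subunits on the same array, and 0.00 and 0.08 below it on replicates 2 and 3. The part of the narrower spread of that array in these values was not tested. Over the 13 GABA-A subunits without rho, 0 passed the unadjusted threshold, the median difference was 0.04 and the range was −0.08 to 0.15.

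The rho subunits form GABA-gated channels best known from the retina. Gabrr3 had values of 5.06, 4.99 and 5.10 in the sevoflurane group, all above the 4.93, 4.89 and 4.89 of the control group, with a difference of 0.15 (95% interval −0.08 to 0.38, unadjusted p of 0.182 by limma). With 3 values in each group an exact two-sided permutation p cannot be under 0.1, which is the value Gabrr3 had. Gabrr2 had 6.07, 5.90 and 5.90 in the sevoflurane group and 6.21, 6.20 and 6.01 in the control group, a difference of −0.18 (−0.44 to 0.08), and Gabrr1, its neighbour on chromosome 5, differed by −0.06. All 3 lay below the brightest background controls, which limits what can be read from them.

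Genes of GABA-A subunits lie in clusters in the rat genome, and the subunits of each cluster gave small differences. On chromosome 14 the order is Gabrb1, Gabra4, Gabra2 and Gabrg1, with 1 other coding gene between Gabra4 and Gabra2, and their differences were 0.04, 0.02, −0.06 and −0.08. The adjacent Gabrg3 and Gabra5 on chromosome 1 differed by 0.04 and 0.01, and the adjacent Gabra6 and Gabrb2 on chromosome 10 by 0.12 and 0.00. On chromosome X, Gabre, Gabra3 and Gabrq differed by 0.04, 0.08 and 0.15. None of the 11 subunits in these clusters passed the threshold.

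GABA-B receptors need both of their subunits to signal. Gabbr2 had 10.20, 10.30 and 10.21 in the sevoflurane group and 10.12, 10.26 and 10.17 in the control group, a difference of 0.05 (95% interval −0.19 to 0.29), and Gabbr1, the subunit that binds GABA, differed by 0.02 (−0.24 to 0.27). Both intervals lay within 1.3-fold.

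Among the glycine receptor subunits the largest difference was that of Glra1, the alpha subunit of adult brainstem and spinal cord receptors. Its values were 6.01, 5.73 and 5.47 in the sevoflurane group and 5.33, 5.53 and 5.42 in the control group. Sevoflurane replicates 1 and 2 were above every control and replicate 3 was not, and the difference of 0.31 (95% interval −0.03 to 0.66) had an unadjusted p of 0.0700 by limma and an exact permutation p of 0.2. It was 0.18 without sevoflurane replicate 1, with an unadjusted p of 0.176 by limma, and 0.45 without replicate 3, with a p of 0.0134. After quantile normalization the difference was 0.31, with a p of 0.0172. All 6 values were below the brightest background control of their array. Glra3 had 4.41, 4.45 and 4.46 in the sevoflurane group and 4.03, 4.41 and 4.30 in the control group, a difference of 0.19 (−0.10 to 0.48). Glrb, which anchors glycine receptors to gephyrin, had 8.90, 9.45 and 9.44 in the sevoflurane group and 9.39, 9.32 and 9.29 in the control group, and its difference of −0.07 (−0.43 to 0.30) stood beside a value of replicate 1 below all controls. Glra2, the subunit prominent in the developing brain, differed by −0.00 (−0.32 to 0.31). Over all 22 receptor subunits, 0 passed the unadjusted threshold and the range was −0.18 to 0.31.

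Gephyrin (Gphn) is the scaffold that clusters glycine and GABA-A receptors, and neuroligin 2 (Nlgn2) is the adhesion protein of inhibitory synapses. Gphn had 8.58, 8.91 and 8.94 in the sevoflurane group and 8.90, 8.73 and 8.85 in the control group, a difference of −0.01 (95% interval −0.31 to 0.28). Nlgn2 had 8.45, 8.70 and 8.41 in the sevoflurane group and 8.70, 8.85 and 8.62 in the control group. Sevoflurane replicates 1 and 3 were below all controls and replicate 2 was among them, and the difference of −0.20 (−0.48 to 0.08) had an unadjusted p of 0.142 by limma.

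The genes that mark GABA-producing terminals did not pass the threshold. Gad1 had 9.29, 9.62 and 9.46 in the sevoflurane group and 9.53, 9.64 and 9.50 in the control group, a difference of −0.10 (95% interval −0.38 to 0.18), and Gad2 differed by 0.03 (−0.23 to 0.29). Slc32a1, the vesicular transporter, had 7.30, 7.71 and 7.67 in the sevoflurane group and 7.49, 7.71 and 7.71 in the control group, a difference of −0.08 (−0.40 to 0.25). The 3 genes averaged 0.25 below the control mean on sevoflurane replicate 1 and 0.07 and 0.03 above it on replicates 2 and 3. Of 18 interneuron markers, 1 was higher and 0 were lower at an unadjusted p under 0.05 by limma, and their median difference was −0.02. The 1 was Kcnc2, a potassium channel of fast-spiking cells, with a difference of 0.29, an unadjusted p of 0.0201 and an exact permutation p of 0.1, while the interneuron genes Pvalb and Sst differed by −0.05 and −0.08.

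Slc6a11 was the member with the largest difference. The transporter, GAT-3, is found mainly on astrocytes and removes GABA from outside the synapse. Its values were 9.52, 9.82 and 9.29 in the sevoflurane group, all above the 9.19, 9.22 and 9.17 of the control group. The means were 9.54 ± 0.26 in the sevoflurane group and 9.19 ± 0.03 in the control group (SD, n = 3 arrays each). The difference was 0.35 (SE 0.144, 95% interval 0.02 to 0.68), or 1.28-fold (1.01 to 1.60), with an unadjusted p of 0.0395 by limma, an adjusted p of 1.0 and an exact two-sided permutation p of 0.1. The call depended on the arrays used: without sevoflurane replicate 2 the difference was 0.21, with an unadjusted p of 0.162 by limma. Without sevoflurane replicate 1 or 3 it was 0.36 and 0.48, with an unadjusted p of 0.0475 and 0.00798 by limma. Leaving out control replicate 1, 2 or 3 kept the difference at 0.35, 0.37 and 0.34. With 1 array fewer, p by limma was then 0.0841, 0.0737 and 0.0995. The difference was above 0 under all 14 alternative settings, and the unadjusted p was under 0.05 in 7 of them.

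Some tissue markers were also higher in the sevoflurane group. Of 20 thalamus and habenula markers, 9 were higher and 0 lower at an unadjusted p under 0.05 by limma, with a median difference of 0.43. The 4 with the smallest p by limma, each with an exact permutation p of 0.1, were Prkcd (difference 1.23, unadjusted p of 8.61e-05), Slitrk6 (1.33, p of 0.000135), Slc17a6 (1.02, p of 0.00546) and Shox2 (0.78, p of 0.00628). The mean of the list lay 0.43, 0.82 and 0.22 above the control mean on sevoflurane replicates 1, 2 and 3. This was the same order of sevoflurane arrays as for Slc6a11. Among the controls both were highest on replicate 2, but the list was lowest on replicate 1 and Slc6a11 on replicate 3. The level of the list ran over 7.04 to 7.65 in the sevoflurane group and 6.76 to 6.88 in the control group. Of 12 astrocyte markers, 2 were higher and 0 lower: Gjb6, a gap junction gene (difference 0.76, unadjusted p of 5.63e-05), and Aldoc, a glycolytic enzyme (0.30, p of 0.0223), each with an exact permutation p of 0.1. The mean of the astrocyte list lay 0.11, 0.13 and 0.19 above the control mean on the 3 sevoflurane arrays, with levels of 8.94 to 9.02 in the sevoflurane group and 8.79 to 8.88 in the control group, and the abundant glial genes Gfap, Slc1a3 and Slc1a2 differed by 0.10, 0.06 and 0.01. Over the astrocyte list the median difference was 0.12, and 10 of 12 differences were above 0. The lowest was that of Sox9 (−0.27, unadjusted p of 0.0909 by limma). All 20 and all 12 markers were above the background median on the 6 arrays. The part of either set of cells in the Slc6a11 value was not tested.

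**Figure D3:**
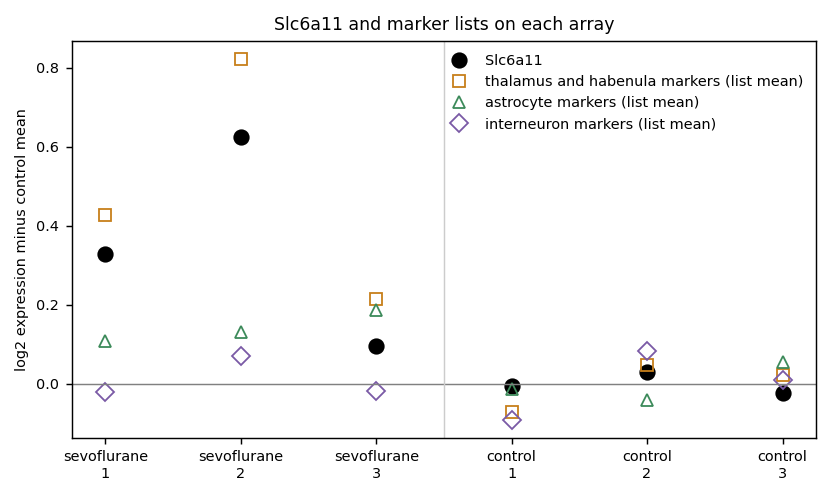
For each array the plot gives the log2 expression of Slc6a11 and the mean of 3 marker lists, all minus the mean of the control arrays. On the sevoflurane arrays Slc6a11 and the thalamus and habenula list are both highest on replicate 2 and lowest on replicate 3, the astrocyte list is highest on replicate 3, and the interneuron list stays near 0.

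The other genes that end the GABA signal showed smaller differences. Abat, the transaminase that degrades GABA, had 9.21, 9.38 and 9.27 in the sevoflurane group, all above the 9.10, 9.18 and 9.19 of the control group, but the difference of 0.13 (95% interval −0.11 to 0.37) had an unadjusted p of 0.247 by limma. Slc6a13 (GAT-2), a transporter of the meninges and the liver, differed by 0.12 (−0.22 to 0.46), with 6.55, 6.00 and 6.19 in the sevoflurane group and 6.08, 6.20 and 6.09 in the control group. Sevoflurane replicate 1 alone was above the controls, and on that array the mean of 12 fibroblast and meningeal markers was 0.21 above the control mean, against 0.06 and 0.09 below it on replicates 2 and 3. The part of those cells in the value was not tested.

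Of the chloride cotransporters, Slc12a5 had 9.32, 9.42 and 9.23 in the sevoflurane group and 9.21, 9.37 and 9.29 in the control group, a difference of 0.03 (95% interval −0.22 to 0.28). Slc12a2 had 9.07, 9.27 and 9.34 in the sevoflurane group, all above the 8.93, 8.94 and 9.04 of the control group. Its means were 9.23 ± 0.14 in the sevoflurane group and 8.97 ± 0.06 in the control group (SD, n = 3 arrays each), and the difference of 0.25 (SE 0.115, 95% interval −0.01 to 0.52), or 1.19-fold, missed the threshold, with an unadjusted p of 0.0576 by limma and an exact permutation p of 0.1. It was 0.33 without sevoflurane replicate 1, with an unadjusted p of 0.00861 by limma, and 5 of the 14 alternative settings brought p under 0.05. Slc12a2 is expressed by glia and the choroid plexus as well as by neurons. The mean of the 12 astrocyte markers, 2 of which were higher, lay 0.11, 0.13 and 0.19 above the control mean on sevoflurane replicates 1, 2 and 3. This was the same order of sevoflurane arrays as for Slc12a2. Among the controls both were highest on replicate 3, but Slc12a2 was lowest on replicate 1 and the astrocyte list on replicate 2. Of 13 choroid plexus markers 1 was higher at an unadjusted p under 0.05 by limma (Cldn2, difference 0.24, p of 0.0471) and 0 were lower, with a median difference of 0.01. That list averaged 0.17 and 0.10 above the control mean on sevoflurane replicates 1 and 2 and 0.10 below it on replicate 3. The part of these cells in the Slc12a2 value was not tested. Whether the 2 cotransporters differed from each other in response was not tested.

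**Figure D4:**
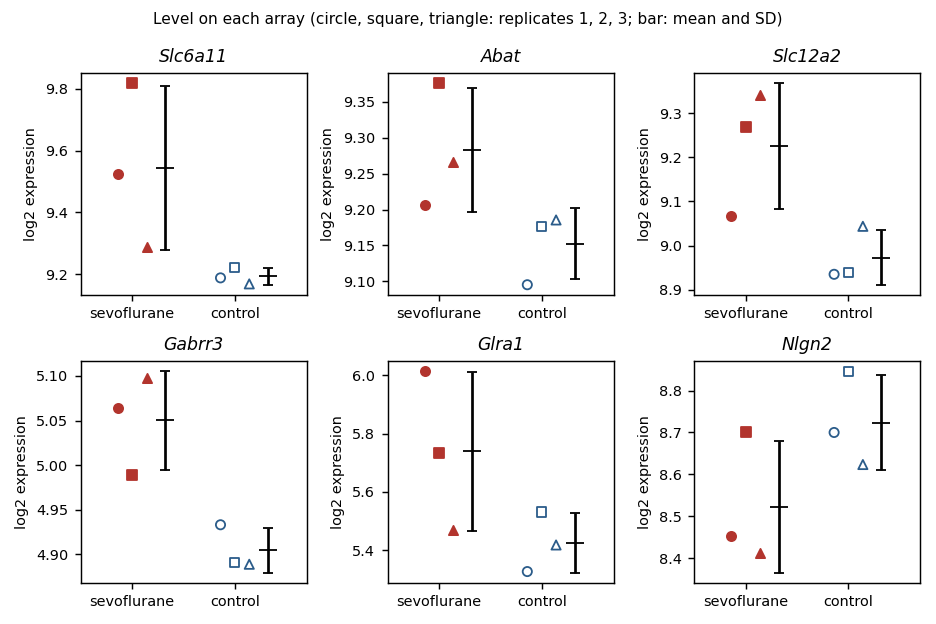
Log2 expression on each array is shown for 6 genes, sevoflurane to the left of control, with circles, squares and triangles for replicates 1, 2 and 3 and a bar for the mean and SD of 3 arrays. The groups do not overlap for Slc6a11, Abat, Slc12a2 and Gabrr3, and they overlap for Glra1 and Nlgn2, and each panel has its own axis range.

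Altogether 4 of the 32 genes had all 3 sevoflurane values above all 3 control values (Slc6a11, Slc12a2, Abat and Gabrr3) and 0 had all below, where 4.93% and 1.34% of all 22093 genes did so. Centring each array on its median, or quantile normalization, also gave 4 genes, but with 3 above and 1 below. Gabra6 and Glra1 then joined above and Gabrr2 below, with Slc12a2 kept after quantile normalization and Slc6a11 after centring. The deposited values of Gabra6, Glra1 and Gabrr2 were all below the brightest background control of their array. The share of all genes without overlap was not computed under either setting, so these counts have no share to be set against. Leaving out an array makes separation easier for every gene. The count was 10 (8 above) when sevoflurane replicate 1 was dropped, where 27.6% of all genes did not overlap, 7 (4 above) when its replicate 2 was dropped, where 11.8% did not, and 8 (all above) when control replicate 2 was dropped, where 12.4% did not.

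**Figure D5:**
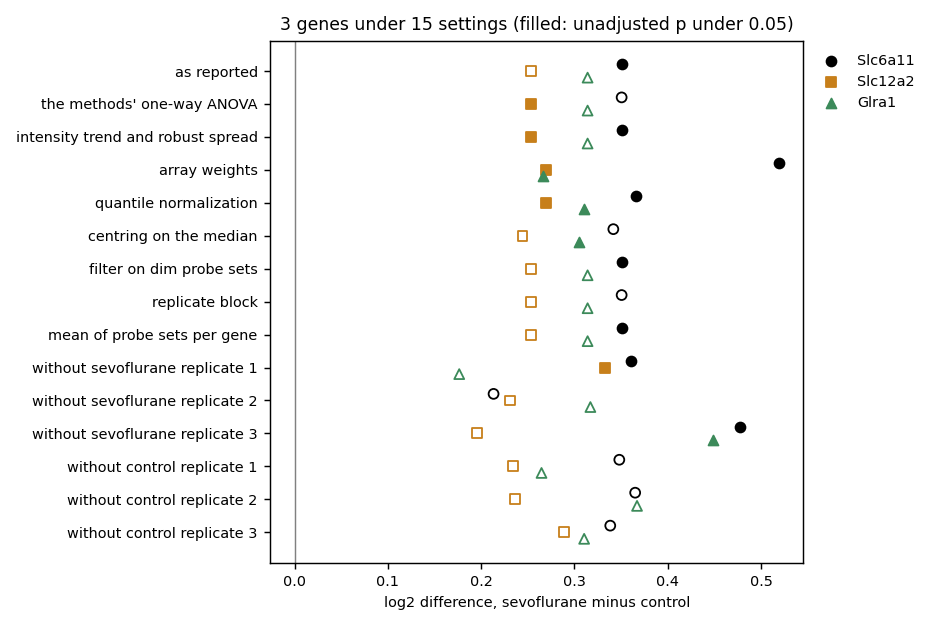
The log2 difference, sevoflurane minus control, of Slc6a11, Slc12a2 and Glra1 is shown as reported and under 14 alternative settings, with a filled symbol where the unadjusted p was under 0.05. The differences stay above 0 throughout, while the filled symbols come and go, with 7 of 14 for Slc6a11, 5 of 14 for Slc12a2 and 4 of 14 for Glra1.

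Of 44 further genes of the inhibitory synapse, 41 were measured. These cover receptor trafficking and anchoring, accessory proteins of GABA-B receptors and their potassium channels, glycine transport and cleavage, and the kinases of chloride cotransporters. By limma, 0 of the 41 passed an unadjusted p under 0.05 in either direction. Of all 22093 genes, 1.1% were called higher and 0.222% lower, so a count of 0 among 41 is near those shares. The median difference of the 41 was 0.01 and 24 differences were above 0. The 4 with the smallest p were Insyn2b, an inhibitory synaptic factor (difference 0.38, unadjusted p of 0.0711), Plcl1, a protein that binds GABA-A receptors and a phosphatase (0.22, p of 0.105), Kctd16, an auxiliary subunit of GABA-B receptors (−0.23, p of 0.105), and Kcnj3, a subunit of the potassium channel that GABA-B receptors open (−0.22, p of 0.116). Kctd16 had 8.71, 9.02 and 9.05 in the sevoflurane group, all below the 9.26, 9.13 and 9.09 of the control group. Kcnj3 had 8.68, 9.03 and 8.95 in the sevoflurane group, all below the 9.17, 9.12 and 9.03 of the control group, although replicate 2 of the sevoflurane group (9.028) and replicate 3 of the control group (9.029) were almost equal. In the other direction Gldc, the glycine decarboxylase of the glycine cleavage system, had 7.32, 7.38 and 7.45 in the sevoflurane group and 7.25, 7.21 and 7.31 in the control group, a difference of 0.13. Of the 41 genes, 1 thus had all sevoflurane values above the controls and 2 had all below, where 4.93% and 1.34% of all genes did so.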

How the data were processed

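RNA from the hippocampus of 6 rats, 3 in the sevoflurane group and 3 in the control group, was hybridised to 1 Clariom D Pico array each, and groups were taken from the submitters' labels. The values are on a log2 scale, already normalized when the authors deposited them. In the submitters' processing notes stand RMA, MAS5 and Affymetrix Expression Console 1.4.1, and which of them gave the values is not stated. Normalization across arrays can remove a change common to most genes. 0 columns belonged to no sample, and 0 pairs of arrays held identical values.

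Of 70580 probe sets, 1738 controls were left out and 68842 were tested without a filter on level. Of these, 23446 name 1 gene in the platform annotation, 505 name several and 44891 name none, and a gene was taken only from a probe set naming 1. The groups were tested two-sided in limma 3.58.1 under R 4.3.3 with its functions lmFit and eBayes, with Benjamini-Hochberg adjustment over all probe sets, after a check on simulated data, and single genes also with an exact permutation test. P-values measure the spread between 3 rats a group. The number of arrays limits the precision. Alternatives were the methods' one-way ANOVA, an intensity trend with robust spread, array weights, quantile normalization, centring, a filter on dim probe sets, a replicate block, the mean of a gene's probe sets, and leaving out each array. The count of intervals within 1.5-fold was added after seeing the data.

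The 32 genes, the marker lists and the further synapse genes were chosen with earlier results of these data known. Values on each array are given for genes with an unadjusted p under 0.05, genes whose groups do not overlap, the 6 largest differences among those above background on all arrays, and the member of highest mean in each role class. Slc32a1, Slc6a13, Kctd16, Kcnj3, Gldc and the second probe set of Glra2 were shown per array after their values were seen. Of the further synapse genes the 4 of smallest p are named, of marker lists those with an unadjusted p under 0.05 (at most 4 a list), and Pvalb, Sst, Gfap, Slc1a3 and Slc1a2 were added as well-known markers. Sox9 was added, after its value was seen, as the astrocyte marker with the lowest difference. Promoter sequences are RefSeq's (GRCr8), and gene order comes from the same annotation. Its build may differ from that of the array annotation, so no coordinates are given for probe sets or genes, and those of the promoter windows are GRCr8's.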

Additional observations from a re-analysis of the deposited data

How the results depend on the processing

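No gene of the 32 passed adjustment under any of the 14 alternatives. The count at an unadjusted p under 0.05, 1 as reported (beside 1.61% of all probe sets), was 2 with the methods' one-way ANOVA (Gabrr3 and Slc12a2, so without Slc6a11; 2.52% of all probe sets), 2 with an intensity trend and robust spread (1.63%), 4 with array weights (13.9%), 3 after quantile normalization (3.04%) and 0 to 2 when 1 array was left out (0.906% to 6.01%). With centring it stayed at 1, but the gene was Glra1 and not Slc6a11. The share over all probe sets moved with the setting, so these counts are not comparable in size. Leaving out 1 array gave 5 to 10 genes without overlap, where 10.3% to 27.6% of all genes did not overlap, against 4 genes and 6.27%. Of the 41 further genes, 6 passed with array weights, 3 after quantile normalization and 0 to 1 with an array left out, against 0 as reported. The median difference of the 32 genes ran over 0.00 to 0.10, and 25 to 31 intervals lay within 1.5-fold. The sign of the difference changed for 10 of the 32 genes without sevoflurane replicate 1 and for 9 with array weights. Under the other settings it changed for 0 to 8. All genes that changed sign had reported differences of at most 0.15 in absolute size. The cause of these shifts was not tested.

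The labels do not say whether the replicate numbers pair the rats. The correlations of same-numbered arrays' deviations from their group means were −0.585, −0.288 and 0.026. Those of differently numbered arrays ran from −0.504 to 0.558. With 3 arrays a group, such correlations cannot decide whether the rats were paired. With the replicate number as a block, 0 of the 32 genes and 490 probe sets had an unadjusted p under 0.05, against 1 and 1108 without it, and Slc6a11 had an unadjusted p of 0.0617 by limma.

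Differences of dim genes rest on values below the brightest background controls. Genes below them on every array were Gabra6, the delta, epsilon, theta, pi and rho subunits, Glra1, Glra3 and Slc6a13. Gabrg1, Slc32a1 and Glra2 were below the brightest control on sevoflurane replicate 1 alone (7.24, 7.30 and 7.33 against 7.46). With 3 rats a group, differences below about 0.29 on the log2 scale were mostly not detectable.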

Other observations

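For 3 of the 32 genes a second probe set named the same gene. The second probe set of Glra2 differed by 0.30 (95% interval −0.17 to 0.77, unadjusted p of 0.183 by limma), with values of 6.01, 6.85 and 6.61 in the sevoflurane group and 6.27, 6.29 and 6.00 in the control group, whereas the probe set used for Glra2 differed by −0.00. The second probe sets of Gabbr2 and Gabra4 differed by −0.04 and 0.04. What separates the probe sets of a gene was not tested.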
